A study of Mus musculus with 12 samples.

Results

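The genes described here mark the 2 main layers of a blood vessel wall, 21 genes of endothelial cells and 13 genes of mural cells (vascular smooth muscle cells and pericytes). The 34 genes were picked by name, and a probe set was taken for a gene when the platform annotation gave that gene's symbol alone. All 34 matched, through 64 probe sets, out of 18193 genes named on the array. The 18 genes with several probe sets are described by their brightest, by mean over the 12 arrays. A gene counted as measured when its signal exceeded the 40th percentile of the array on 3 or more arrays. This held for 33 genes, and 29 of them exceeded it on all 12 arrays. These 33 genes, 20 endothelial and 13 mural, were tested. The exception was Pecam1 (CD31), an adhesion protein of endothelial junctions, whose single probe set was called Present on no array and read between 2.9 and 14.3, so it was not tested.

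The study measured RNA of epithelium cut by laser capture from the conjunctival fornix of mice, the deep pocket between eyelid and eyeball. There were 4 groups of 3 samples on a mixed strain background: wild type at postnatal days 9, 14 and 20 (PN9, PN14 and PN20), and mice with a conditional knockout of the transcription factor Klf4 (Klf4CN) at PN14. The RNA was amplified in 2 cycles and hybridised to Affymetrix arrays. Samples are described as independent, but no label names the animal behind each, so p-values measure the spread between these samples. The driver of the recombination and the deleted part of Klf4 are not given in the sources used here.

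Blood vessels are tubes of endothelial cells that rest on a basement membrane and are wrapped by mural cells, pericytes on capillaries and contractile smooth muscle on arterioles and venules. Endothelial cells grow and sprout in response to vascular endothelial growth factors and angiopoietins, and they recruit mural cells by secreting platelet-derived growth factor B, which acts on the receptor Pdgfrb. The conjunctiva carries a dense net of such vessels and of lymphatic vessels in its stroma, just below the epithelium. Several of the mural genes are also used outside vessel walls: Acta2 by other contractile cells, Des by skeletal muscle, and Tpm2 and Mylk by many cell types.

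Signals below are on the array's linear scale, scaled to a common median, and cannot be compared between genes. A change passed at an adjusted p under 0.05 in limma's moderated test fitted across 14172 genes. Log2 changes are given with their standard errors, on the scale of log2(signal + 16), and understate the changes of dim genes. In these bulk samples, fewer cells of a type and less RNA per cell cannot be told apart. Replicate arrays correlated with r between 0.9395 and 0.9778. The actin 3'/5' ratio, a measure of RNA length after amplification, ranged from 24.17 to 46.8 at PN9, from 11.07 to 24.87 at PN14, from 9.76 to 16.52 at PN20 and from 5.4 to 17.55 on the arrays labelled Klf4CN. Klf4 itself read 4392, 6843 and 5303 on the PN14 wild-type arrays and 10933, 8848 and 7432 on the arrays labelled Klf4CN (log2 change 0.72 ± 0.19, adjusted p = 0.221). The measured Klf4 RNA thus goes against the label, and whether this probe set lies in the deleted part is not given, so these arrays are named by their label. The epithelial markers used as a check of the tissue, 8 genes such as Epcam and Krt14, were each Present on at least 1 array.

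The mean level of the mural genes was lowest at PN20. Averaged over the 13 genes, the log2 deviation from the mean of all arrays was 0.43 ± 0.27 at PN9, 0.31 ± 0.35 at PN14 and -0.97 ± 0.22 at PN20 (SD, n = 3). From PN14 to PN20, 5 of the 13 fell: Myh11, Myl9, Cnn1, Tagln and Des, all parts of the contractile apparatus or its cytoskeleton. The share of all genes that fell in this step was 0.713%. All 13 changes lay below 0, with a median of -1.08 against 0.01 over all genes, and for 11 of the 13 every PN20 array lay below every PN14 array, against 14.2% of all genes. Over the span from PN9 to PN20, 10 of the 13 fell, against 10.8% of all genes, with a median change of -1.29 against 0.02. The groups did not overlap for 11 of the 13, against 18.5% of all genes. Between PN9 and PN14 none of the 13 passed in limma's test (1 at an unadjusted p under 0.05), with a median of -0.12, where 4.34% of all genes rose and 2.66% fell.

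The motor proteins of smooth muscle come first. Myh11 (probe set 1448962_at), the smooth muscle myosin heavy chain and the most specific marker of that cell type, read 1484, 1856 and 1541 at PN9, 1605, 1039 and 967 at PN14, 288, 313 and 256 at PN20 and 838, 786 and 1806 on the arrays labelled Klf4CN. Myl9 (1452670_at), a regulatory light chain of the same myosin, read 1184, 1725 and 699 at PN9, 1568, 998 and 753 at PN14, 192, 222 and 151 at PN20 and 456, 491 and 1067 on the arrays labelled Klf4CN. For both genes the 3 PN20 arrays were the lowest of the 12, and the PN9 and PN14 arrays overlapped. Myh11 fell 3.95-fold from PN14 to PN20 (log2 change -1.98 ± 0.29, adjusted p = 0.0108) and 5.43-fold from PN9 to PN20 (-2.44 ± 0.29, adjusted p = 0.000108). The other kept probe set of Myh11, the dimmer 1418122_at, was Present on 8 arrays. Its groups overlapped in both comparisons, with log2 changes of -0.48 and -0.57. Myl9 fell 5.31-fold from PN14 to PN20 (log2 change -2.41 ± 0.37, adjusted p = 0.0108) and 5.65-fold from PN9 to PN20 (-2.50 ± 0.37, adjusted p = 0.000487).

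Proteins that bind the actin filament in smooth muscle were likewise lowest at PN20. Cnn1 (1417917_at), calponin, which restrains the myosin motor on actin, read 756, 821 and 419 at PN9, 824, 471 and 522 at PN14, 124, 123 and 162 at PN20 and 387, 307 and 571 on the arrays labelled Klf4CN. Tagln (1423505_at), transgelin or SM22, an actin cross-linking protein, read 1014, 1405 and 893 at PN9, 1350.5, 542 and 616 at PN14, 229, 262 and 120.5 at PN20 and 534, 604 and 1676 on the arrays labelled Klf4CN. In both, no PN20 array reached the lowest array of any other group, and PN14 replicate 1 stood highest of its group. Cnn1 fell 3.99-fold from PN14 to PN20 (log2 change -2.0 ± 0.29, adjusted p = 0.0108) and 4.33-fold from PN9 to PN20 (-2.12 ± 0.29, adjusted p = 0.000328). Tagln fell 3.73-fold in the later step (log2 change -1.90 ± 0.43, adjusted p = 0.0475) and 5.23-fold over the whole span (-2.39 ± 0.43, adjusted p = 0.00157). Des (1426731_at), desmin, the intermediate filament of muscle cells, read 458, 531 and 262 at PN9, 582, 366 and 406 at PN14, 156, 154 and 98.3 at PN20 and 373, 303 and 384 on the arrays labelled Klf4CN. It was Present on all arrays of the other groups and on 0 of 3 arrays at PN20, so its fall is a lower bound, at least 3.07-fold from PN14 (-1.62 ± 0.27, adjusted p = 0.0136) and at least 2.78-fold from PN9 (-1.48 ± 0.27, adjusted p = 0.00175).

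Acta2, smooth muscle alpha-actin, and Tpm2, beta-tropomyosin, form the thin filament itself, and both fell over the whole span but in neither step alone. Acta2 (1416454_s_at, a probe set that matches several transcripts) read 8817, 10257 and 7485 at PN9, 7805, 6759 and 7907 at PN14, 4878, 4985 and 3691 at PN20 and 6995, 6013 and 13866 on the arrays labelled Klf4CN. Tpm2 (1419738_a_at) read 8419, 11655 and 5381 at PN9, 6311, 6354 and 6039 at PN14, 3179, 3039.9 and 2616 at PN20 and 4104, 3191 and 9423 on the arrays labelled Klf4CN. For each gene the PN20 arrays lay below every wild-type array of the earlier ages. The fall from PN9 to PN20 was 1.96-fold for Acta2 (log2 change -0.97 ± 0.26, adjusted p = 0.0156) and 2.74-fold for Tpm2 (-1.46 ± 0.34, adjusted p = 0.00686). In the later step the change did not pass for Acta2 (-0.74 ± 0.26, adjusted p = 0.162) or for Tpm2 (-1.08 ± 0.34, adjusted p = 0.114). Whether either moved less than Myh11 was not tested. The other kept probe set of Acta2, the much dimmer 1444105_at, was Present on 11 arrays. Its log2 change was -0.59 from PN9 to PN20, without overlap, and -0.08 from PN14 to PN20, with overlap. The probe sets of Tpm2, all Present on all 12 arrays, disagreed from PN9 to PN20. Probe set 1425028_a_at had a log2 change of -1.61 without overlap, while 1449577_x_at (-0.07) and 1419739_at (-0.26) overlapped between these ages and were higher at PN14 than at PN9 without overlap (1.52 and 0.56). With the mean of all kept probe sets the call of Tpm2 from PN9 to PN20 was lost (log2 change -0.85).

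**Figure D1:**
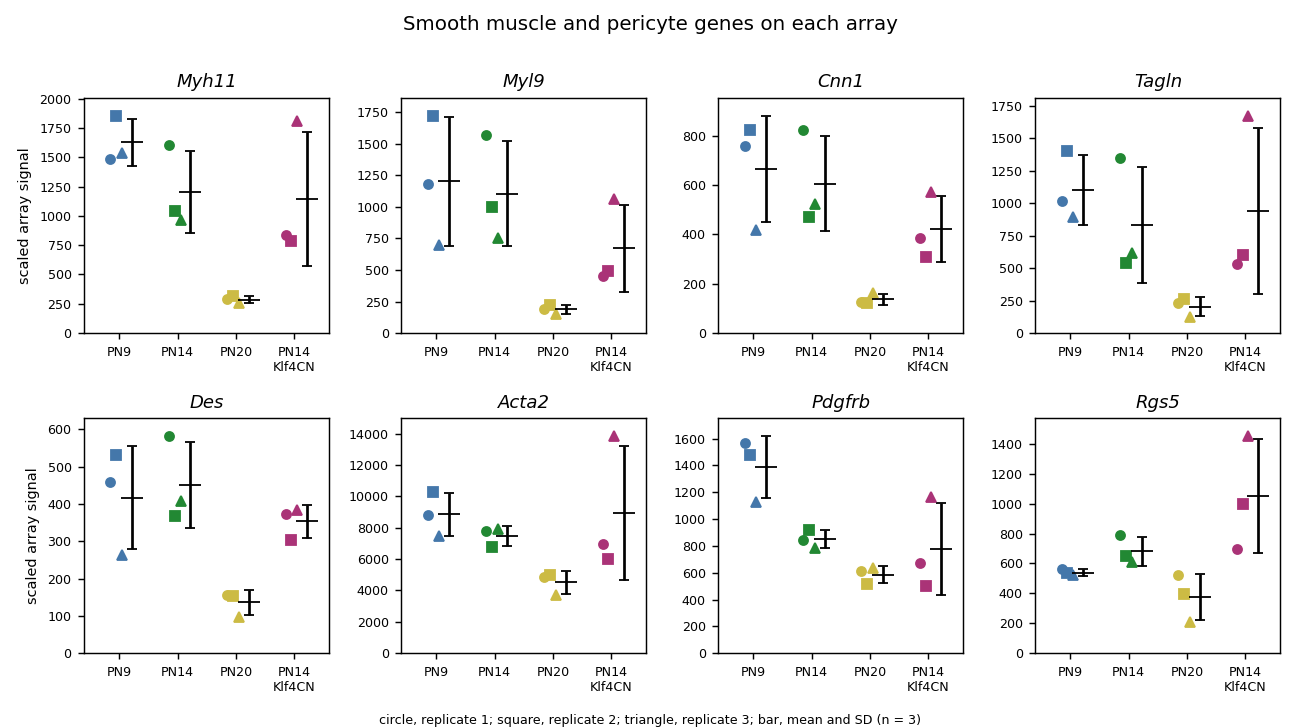
Scaled array signal (linear, vertical axis, from 0) of 8 mural genes on each of the 12 arrays, by group (horizontal axis). Points are arrays with a marker for each replicate, and bars give the mean and SD of 3 arrays. The PN20 arrays are the lowest in every panel except for Pdgfrb, where Klf4CN replicate 2 reads 502, and Rgs5, where PN20 replicate 1 overlaps PN9.

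Smooth muscle genes of this kind are classic targets of serum response factor, which binds a 10-letter motif named the CArG box, and of its coactivator myocardin. The 250 bases before the start of transcription are shown for Acta2 and Myl9, the mural genes with a promoter entry in which a CArG-like match was found. The sequences come from RefSeq (build GRCm38.p6), 5' to 3' on the strand of the gene, and capitals mark the matches.
Acta2 (chr19:34255374-34255623, minus strand): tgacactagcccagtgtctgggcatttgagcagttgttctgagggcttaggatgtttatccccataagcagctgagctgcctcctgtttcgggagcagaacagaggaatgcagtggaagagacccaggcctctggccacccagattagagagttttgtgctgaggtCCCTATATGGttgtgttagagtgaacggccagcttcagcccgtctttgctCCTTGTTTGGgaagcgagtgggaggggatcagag
Myl9 (chr2:156775214-156775463, plus strand): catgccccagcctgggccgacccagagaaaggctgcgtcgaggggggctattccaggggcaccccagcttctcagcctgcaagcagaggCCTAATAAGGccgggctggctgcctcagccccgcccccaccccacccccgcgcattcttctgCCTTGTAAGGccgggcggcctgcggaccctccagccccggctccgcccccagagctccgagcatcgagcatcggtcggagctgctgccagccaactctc
The motif was searched on both strands as CC, then 6 letters that are each A or T, then GG. Myl9 held 1 such match, CCTAATAAGG, from base -161 to base -152 before the start. With 1 of the 6 core letters allowed to be G or C, Myl9 also held CCTTGTAAGG from -99 to -90, and Acta2 held CCCTATATGG from -84 to -75 and CCTTGTTTGG from -34 to -25. The strict motif was present in 1 of the 10 mural genes and 0 of the 13 endothelial genes with an entry, and in 1.47% of 32851 promoters in the table. The relaxed motif was present in 2 of the 10 mural genes, 3 of the 13 endothelial genes and 8.59% of all promoters. A match describes these letters and does not show binding.

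The surface genes of pericytes and other mural cells fell over the whole span. Pdgfrb (1436970_a_at), the receptor through which endothelial cells recruit pericytes, read 1566, 1476 and 1126 at PN9, 846, 918 and 787 at PN14, 609.7, 513 and 633 at PN20 and 669.8, 502 and 1164 on the arrays labelled Klf4CN. The 3 ages did not overlap, each lower than the one before. The fall from PN9 to PN20 was 2.32-fold (log2 change -1.22 ± 0.26, adjusted p = 0.0041), while neither step alone passed (-0.69 ± 0.26, adjusted p = 0.111 to PN14 and -0.53 ± 0.26, adjusted p = 0.319 from PN14 to PN20). Cspg4 (1423341_at), the NG2 proteoglycan of pericytes, read 167, 180.1 and 171 at PN9, 174, 170.3 and 98.4 at PN14, 63.2, 70.5 and 64.6 at PN20 and 118, 105 and 223 on the arrays labelled Klf4CN. Mcam (1416357_a_at), the adhesion protein CD146, found on pericytes, smooth muscle and some endothelial cells, read 164, 156 and 94.3 at PN9, 269, 110.3 and 84.3 at PN14, 70.7, 53.2 and 23.1 at PN20 and 163, 102 and 228 on the arrays labelled Klf4CN. In both genes the PN20 arrays lay below all other arrays. Between PN9 and PN20, Cspg4 fell 2.30-fold (log2 change -1.20 ± 0.26, adjusted p = 0.00469) and Mcam 2.44-fold (-1.29 ± 0.40, adjusted p = 0.0307). Their changes from PN14 to PN20 did not pass (-0.96 ± 0.26, adjusted p = 0.0774 for Cspg4 and -1.32 ± 0.40, adjusted p = 0.105 for Mcam).

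The members that did not pass in any comparison were Rgs5, Mylk and Lmod1. Rgs5 (1417466_at), a regulator of G-protein signalling enriched in pericytes, read 563, 535 and 519.6 at PN9, 792, 648 and 606 at PN14, 521, 396 and 210.1 at PN20 and 698, 1001 and 1454 on the arrays labelled Klf4CN. Its PN14 arrays lay above both the PN9 and the PN20 arrays, while PN9 and PN20 overlapped, and no change passed (log2 change 0.32 ± 0.30, adjusted p = 0.538 to PN14 and -0.91 ± 0.30, adjusted p = 0.136 from PN14 to PN20). Mylk, myosin light chain kinase, averaged 2906 ± 405 at PN9, 3615 ± 1134 at PN14, 2757 ± 718 at PN20 and 4652 ± 2189.6 on the arrays labelled Klf4CN (SD, n = 3). Lmod1, leiomodin 1, a nucleator of actin filaments in smooth muscle, averaged 77.3 ± 13.8 at PN9, 99.3 ± 43.0 at PN14, 51.3 ± 12.4 at PN20 and 98.8 ± 55.9 on the arrays labelled Klf4CN. The probe sets of Mylk disagreed in size. Against a log2 change of -0.38 from PN14 to PN20 for the brightest (1425506_at), probe set 1425505_at went from a mean of 1019 to 256.0 (log2 change -1.85, groups not overlapping).

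The count for the later step changed when single arrays were left out. It was 0 of 13 without PN14 replicate 1, 0 without PN20 replicate 2 and 2 without PN20 replicate 3. Over all 14172 genes the number that fell was 101 as reported and 8, 1 and 14 in these fits. The median mural change stayed between -1.2 and -0.87 whichever array was left out. The mural count was 8 without Klf4CN replicate 3, which added Acta2, Tpm2 and Cspg4, where 2.26% of all genes fell. None of the 5 changes turned in sign in any of these fits, and Tagln's call was lost without any of 8 arrays. For the change from PN9 to PN20, 8 of the 10 mural genes passed whichever array was left out. The exceptions were Acta2, lost without PN9 replicate 2 or PN20 replicate 3 (adjusted p up to 0.0721), and Mcam, lost without PN9 replicate 1 or 2 or PN20 replicate 2 or 3 (up to 0.134). Without Klf4CN replicate 3, Pdgfrb also fell from PN9 to PN14, where 5.22% of all genes fell. PN14 replicate 1 was the highest of its group for 10 of the 13 mural genes, and PN20 replicate 3 was the lowest of all 12 arrays for 9.

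Of the 20 endothelial genes tested, 9 fell between PN9 and PN20, against 10.8% of all genes, and the median change was -0.54 against 0.02. The 9 include Erg, which was Present on at most 1 array of each group. In the first step, to PN14, Egfl7 and Flt4 fell, 2 of 20 where 2.66% of all genes fell. In the second, to PN20, Eng and Esam fell, 2 of 20 where 0.713% of all genes fell. The medians of the 2 steps were -0.39 and -0.29, and no endothelial gene rose in these comparisons (with array weights, Esam rose from PN9 to PN14). From PN9 to PN20 the groups did not overlap for 14 of the 20, all lower at PN20, against 18.5% of all genes.

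Junction proteins hold the endothelial sheet together. Cdh5 (1433956_at), VE-cadherin, the adhesive core of endothelial adherens junctions, read 72.8, 92.5 and 72.6 at PN9, 59.4, 53.8 and 56.1 at PN14, 36.7, 51.4 and 62.8 at PN20 and 54.3, 90.3 and 85.7 on the arrays labelled Klf4CN. Every PN14 and PN20 array lay below every PN9 array, but no change passed (for PN9 against PN20, log2 change -0.54 ± 0.22, adjusted p = 0.0895). Cldn5 (1417839_at), the tight junction claudin of endothelium, read 445, 768 and 252 at PN9, 243, 210.4 and 331 at PN14, 175, 177 and 185 at PN20 and 206, 180.5 and 271 on the arrays labelled Klf4CN. PN9 replicate 2 stood highest, and the PN20 arrays lay within a narrow band below all arrays of the other wild-type groups. Cldn5 fell 2.36-fold from PN9 to PN20 (-1.24 ± 0.31, adjusted p = 0.0113). Esam (1460356_at), an immunoglobulin-like adhesion protein of endothelial tight junctions, read 116, 138 and 126 at PN9, 162, 168 and 173 at PN14, 79.3, 81.4 and 83.8 at PN20 and 156, 153 and 171 on the arrays labelled Klf4CN. Its PN14 arrays were above the PN9 arrays (log2 change 0.37 ± 0.16, adjusted p = 0.161), and its PN20 arrays were below both. It fell 1.88-fold from PN14 to PN20 (-0.91 ± 0.16, adjusted p = 0.0165) and 1.46-fold from PN9 to PN20 (-0.54 ± 0.16, adjusted p = 0.0242).

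Among the secreted proteins, Egfl7 (1451428_x_at), a matrix-bound factor made by endothelial cells that guides vessel tube formation, read 266, 413 and 251 at PN9, 121, 135 and 142 at PN14, 76.6, 102 and 60.5 at PN20 and 101, 120.3 and 211 on the arrays labelled Klf4CN. The 3 ages did not overlap, and PN9 was the highest. Egfl7 fell 2.14-fold from PN9 to PN14 (log2 change -1.10 ± 0.27, adjusted p = 0.0272) and 3.39-fold from PN9 to PN20 (-1.76 ± 0.27, adjusted p = 0.000531). The suffix of this probe set marks possible cross-hybridisation, and its other 3 kept probe sets had log2 changes from PN9 to PN20 of -1.41, -0.90 and -0.81. Vwf (1435386_at), von Willebrand factor, the clotting protein stored in endothelial cells, read 232, 419.6 and 157 at PN9, 234, 160.2 and 140.3 at PN14, 75.7, 118 and 93.0 at PN20 and 102, 156 and 256 on the arrays labelled Klf4CN. Its PN20 arrays lay below all PN9 and PN14 arrays, and it fell 2.41-fold from PN9 (-1.27 ± 0.35, adjusted p = 0.0168).

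Among the receptors for growth and guidance signals, Eng, Tie1 and Notch4 fell between PN9 and PN20. Eng (1432176_a_at), endoglin, a coreceptor for BMP and TGF-beta ligands that is raised in growing vessels, read 215, 229.7 and 157 at PN9, 142, 150.5 and 178 at PN14, 52.8, 78.0 and 83.6 at PN20 and 92.4, 95.8 and 126 on the arrays labelled Klf4CN. Its PN20 arrays were the lowest of the 12, and it fell 1.99-fold from PN14 (log2 change -0.99 ± 0.21, adjusted p = 0.0382) and 2.48-fold from PN9 (-1.31 ± 0.21, adjusted p = 0.000828). Tie1 (1416238_at), an orphan receptor that modulates angiopoietin signalling, was above the percentile on 8 arrays only and read 33.7, 54.3 and 36.2 at PN9, 22.8, 10.4 and 25.4 at PN14, 21.6, 12.3 and 16.7 at PN20 and 25.4, 27.2 and 47.2 on the arrays labelled Klf4CN. Its PN9 arrays were above all other wild-type arrays, and it fell 1.74-fold from PN9 to PN20 (-0.80 ± 0.26, adjusted p = 0.0409). Notch4 (1449146_at), a Notch receptor of endothelial cells, read 29.4, 38.0 and 27.2 at PN9, 25.5, 24.3 and 33.7 at PN14, 1.9, 12 and 13.2 at PN20 and 22.1, 23.7 and 33.4 on the arrays labelled Klf4CN. On this probe set, Present on 6 arrays and on 0 of 3 at PN20, it fell at least 1.79-fold from PN9 (-0.95 ± 0.25, adjusted p = 0.0133). Another Notch4 probe set, 1456263_at, was dimmer and below the filter but Present on 7 arrays. It did not fall, with means of 15.9 at PN9 and 18.5 at PN20 (log2 change 0.11, with overlap).

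Kdr (1449379_at), VEGF receptor 2, the main receptor that drives endothelial growth, read 298, 252 and 328 at PN9, 239.6, 214 and 254 at PN14, 287, 317 and 296 at PN20 and 301, 305 and 519.8 on the arrays labelled Klf4CN. The PN20 arrays lay within the range of PN9, and no change between ages passed (for PN9 against PN20, log2 change 0.04 ± 0.21, adjusted p = 0.914, 95% interval -0.42 to 0.50). Flt1, VEGF receptor 1, a decoy that binds VEGF with little signalling, averaged 88.9 ± 48.7 at PN9, 70.1 ± 23.2 at PN14, 81.7 ± 4.0 at PN20 and 169 ± 43.0 on the arrays labelled Klf4CN (SD, n = 3). Tek (Tie2), the angiopoietin receptor, averaged 141 ± 38.4 at PN9, 158 ± 33.8 at PN14, 94.6 ± 18.4 at PN20 and 199.7 ± 67.9 on the arrays labelled Klf4CN. Robo4, a guidance receptor that stabilises endothelium, averaged 50.5 ± 15.1 at PN9, 33.8 ± 5.3 at PN14, 37.3 ± 11.1 at PN20 and 33.7 ± 6.5 on the arrays labelled Klf4CN. None of these 3 passed in any comparison. Of the surface glycoproteins, Plvap, which forms the diaphragms of fenestrae and caveolae, averaged 159.6 ± 37.8 at PN9, 174 ± 40.9 at PN14, 109.8 ± 10 at PN20 and 149.7 ± 23.4 on the arrays labelled Klf4CN. Emcn, endomucin, which is strongest on veins and capillaries, averaged 30.8 ± 4.2 at PN9, 30.1 ± 8.6 at PN14, 25.8 ± 6.2 at PN20 and 36.9 ± 20.8 on the arrays labelled Klf4CN. Neither passed.

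Of the transcription factors, only Erg passed, in the comparison of PN9 with PN20. Erg (1440244_at), an ETS factor that maintains endothelial identity, was Present on at most 1 array of each group and read 97.7, 81.5 and 86.8 at PN9, 50.8, 63.8 and 46.4 at PN14, 25.8, 44.6 and 43.9 at PN20 and 35.7, 53.3 and 21.4 on the arrays labelled Klf4CN. It was Present on none at PN20, its PN9 arrays lay above all others, and it fell 1.96-fold (-0.97 ± 0.25, adjusted p = 0.0117). With 1 Present call at PN9 as well, no lower bound on this fall can be given. Sox17, a factor of arterial endothelium, averaged 153 ± 4.8 at PN9, 157 ± 51.1 at PN14, 98.7 ± 32.5 at PN20 and 137 ± 25.6 on the arrays labelled Klf4CN, and Sox18, a factor of vessel and lymphatic development, averaged 104 ± 21.2 at PN9, 75.1 ± 17.6 at PN14, 72.5 ± 24.7 at PN20 and 80.9 ± 35.3 on the arrays labelled Klf4CN. Their changes from PN9 to PN20 did not pass (log2 change -0.60 ± 0.26, adjusted p = 0.109 for Sox17 and -0.45 ± 0.27, adjusted p = 0.256 for Sox18).

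The lymphatic genes were Lyve1, Flt4 and Prox1. Lyve1 (1429379_at), a hyaluronan receptor of lymphatic endothelium that some macrophages also carry, read 476, 562 and 312 at PN9, 324, 340.1 and 289.8 at PN14, 289, 251 and 283 at PN20 and 297, 325 and 263 on the arrays labelled Klf4CN. Its PN20 arrays were below all PN9 and PN14 arrays, and it fell 1.56-fold from PN9 to PN20 (log2 change -0.64 ± 0.21, adjusted p = 0.0379). The other Lyve1 probe set, 1453128_at, Present on all 12 arrays, had a log2 change of -1.49 over that span, without overlap. From PN9 to PN14 it had -1.05 without overlap, against -0.44 with overlap for the brightest. Flt4 (1444052_at), VEGF receptor 3, which receives the lymphatic growth factor VEGF-C, read 396, 266 and 298 at PN9, 174, 180.0 and 202 at PN14, 238, 230.5 and 246 at PN20 and 190.5, 162 and 132 on the arrays labelled Klf4CN. The 3 ages did not overlap, and PN14 was the lowest. Flt4 fell 1.65-fold from PN9 to PN14 (-0.72 ± 0.19, adjusted p = 0.039), and its later changes did not pass (0.34 ± 0.19, adjusted p = 0.401 from PN14 to PN20 and -0.38 ± 0.19, adjusted p = 0.163 from PN9 to PN20). Prox1 (1437894_at), the factor that sets lymphatic identity, read 57.0, 53.2 and 67.7 at PN9, 29.0, 21.9 and 50.5 at PN14, 52.3, 35.4 and 27.1 at PN20 and 45.4, 59.8 and 101 on the arrays labelled Klf4CN. The PN14 and PN20 arrays lay below the PN9 arrays and overlapped each other, and no change passed (-0.63 ± 0.28, adjusted p = 0.175 from PN9 to PN14).

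**Figure D2:**
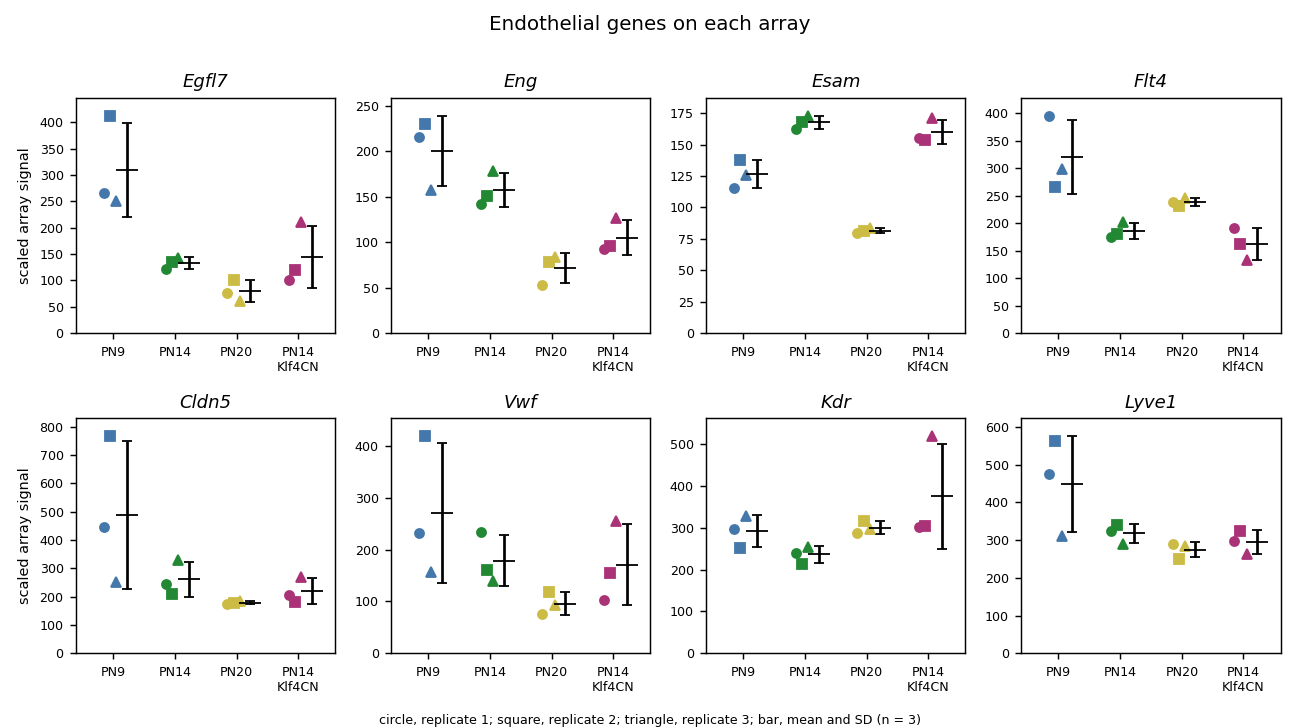
Scaled array signal (linear, vertical axis, from 0) of 8 endothelial genes on each of the 12 arrays, by group (horizontal axis). Points are arrays with a marker for each replicate, and bars give the mean and SD of 3 arrays. Egfl7 is highest at PN9, Esam highest at PN14 and lowest at PN20, Flt4 lowest at PN14 among the wild-type ages, and Kdr at PN20 lies within the range of PN9.

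The calls on single steps of the endothelial genes were lost when single arrays were left out. Over all genes, the number that fell from PN14 to PN20 was 101 as reported and between 1 and 53 without a PN14 or PN20 array. Without any 1 of the 6 PN14 and PN20 arrays the calls of both Eng and Esam from PN14 to PN20 were lost, with adjusted p-values up to 0.144 for Eng and 0.0913 for Esam, and that of Eng also without PN9 replicate 1 or Klf4CN replicate 1. The falls of Egfl7 and Flt4 from PN9 to PN14 were both lost without PN9 replicate 1 or any PN14 array. That of Egfl7 was also lost without PN9 replicate 2, and that of Flt4 without any PN20 array. Without PN9 replicate 3 the count from PN9 to PN14 was 4, with Cldn5 and Lyve1 added. From PN9 to PN20, 3 of the 9 endothelial genes (Eng, Egfl7 and Cldn5) passed whichever array was left out. The call of Tie1 was lost without any PN9 or PN20 array or PN14 replicate 1, and that of Lyve1 without PN9 replicate 1 or 2, PN14 replicate 1 or any PN20 array. That of Esam was lost without PN9 replicate 2 or any PN20 array, and that of Vwf without PN9 replicate 2 or PN20 replicate 1 or 3. Those of Erg and Notch4 were lost without PN20 replicate 1 only. PN9 replicate 2 was the highest of its group for 12 of the 20 endothelial genes and 9 of the 13 mural genes.

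Tested over all 3 ages at once with limma's F-test, 10 of 13 mural and 8 of 20 endothelial genes changed, against 20.1% of all genes. Whether the change from PN14 to PN20 differed from that from PN9 to PN14 was tested directly as well. No mural and no endothelial gene passed in limma (5 and 2 at an unadjusted p under 0.05, lowest adjusted p = 0.144 and 0.0853), against 0.169% of all genes. The second step was the more negative for 12 of 13 mural genes, with a median difference of -1.23, and for 8 of 20 endothelial genes, with a median of 0.24.

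**Figure D3:**
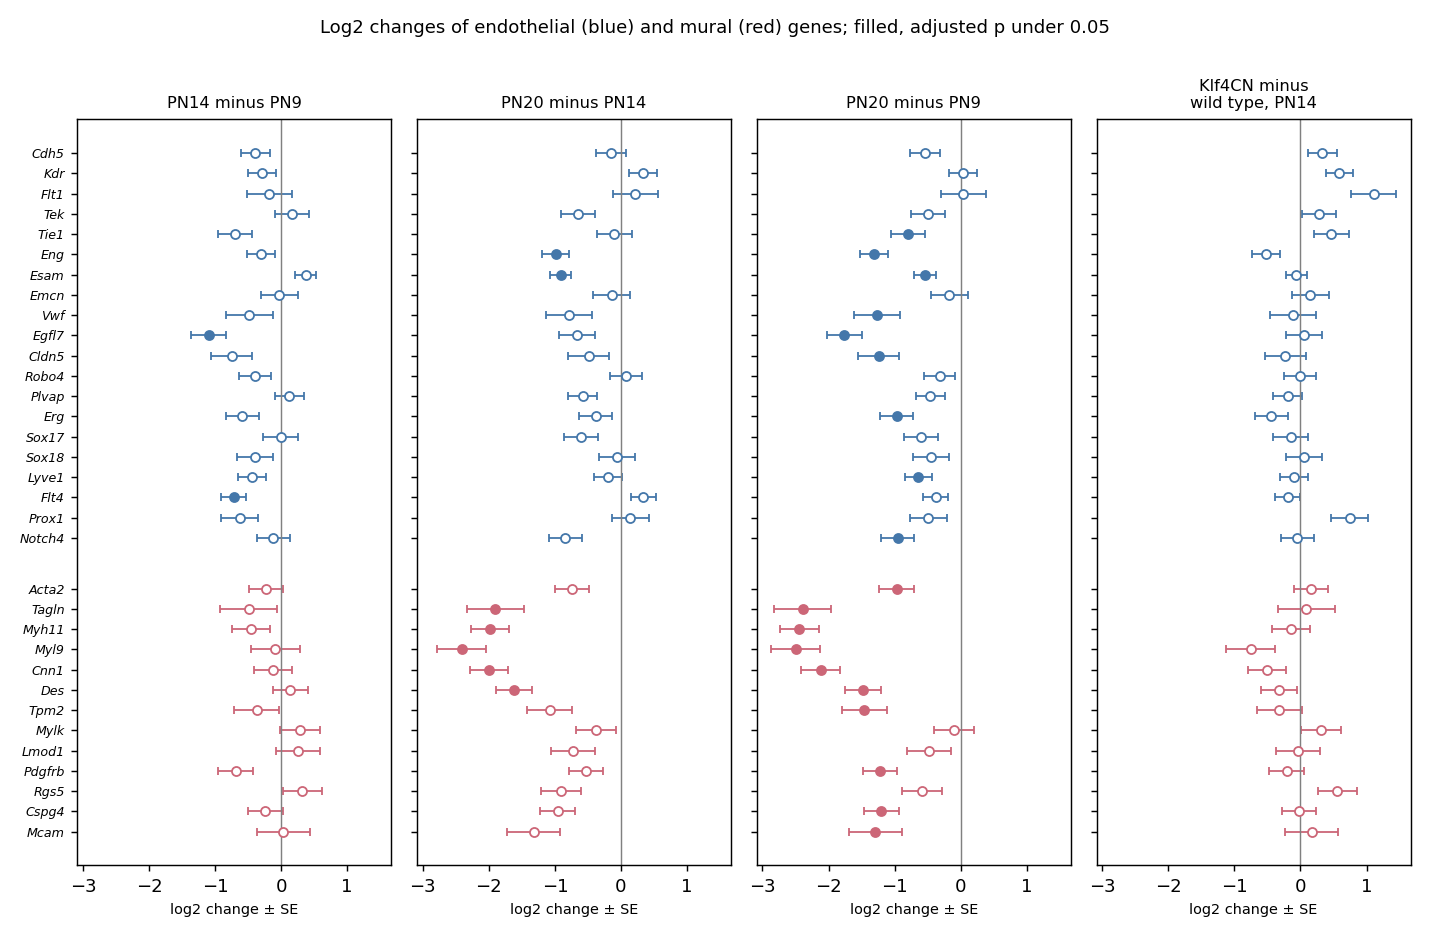
Log2 change with its standard error (horizontal axis) of the 33 tested genes (rows), with 1 panel for each of the 4 comparisons of groups of 3 arrays. Blue points are endothelial and red points mural genes, and filled points have an adjusted p under 0.05. The mural points lie left of 0 in all 13 rows from PN14 to PN20, with 5 filled, and no point is filled for Klf4CN against wild type.

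On the arrays labelled Klf4CN, none of the 33 genes passed against wild type at PN14 in limma. Of all genes 0.183% passed. At an unadjusted p under 0.05 there were 0 mural genes and 4 endothelial genes, namely Flt1, Kdr, Eng and Prox1. Array weights, as an alternative, gave Myl9 (lower) and Flt1 (higher), where 3.22% of all genes passed. The median log2 changes were -0.03 (endothelial) and -0.04 (mural). Flt1 (1451756_at) read 63.6, 50.9 and 95.9 in wild type and 199, 189 and 119.6 on the arrays labelled Klf4CN, with no overlap (log2 change 1.11 ± 0.34, adjusted p = 0.337). Its other kept probe sets disagreed: 1419300_at (0.12) overlapped, and 1440926_at (0.96) did not. The remaining one, 1454037_a_at (0.09), overlapped but was Present on no array and so has no measured change. Of all genes 13.1% did not overlap, and of the members 3, all endothelial. Kdr also did not overlap (0.59 ± 0.21, adjusted p = 0.447). Eng did not overlap in the other direction (-0.52 ± 0.21, adjusted p = 0.51), but its other probe set, 1417271_a_at, overlapped (-0.16). Prox1 overlapped (0.75 ± 0.28, adjusted p = 0.461). The 95% intervals of single genes were wide: -0.76 to 0.47 for Myh11, -1.54 to 0.04 for Myl9 and -0.13 to 0.80 for Cdh5 on the log2 scale.

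The arrays labelled Klf4CN differed among themselves. Replicate 3 was the highest of its group for 13 of 13 mural and 14 of 20 endothelial genes. Its signal over the mean of the other 2 arrays had a median of 2.1 for mural genes (range 1.13 to 2.95) and 1.37 for endothelial genes, against 0.95 over all genes, of which 5.12% exceeded a ratio of 2. On the same array the 12 skeletal muscle markers summed to 51256, against 18449 to 19379 on the other arrays of the group. The 8 fibroblast markers summed to 62967, against 44500 to 46431, and the 8 epithelial markers to 22161, the lowest of all 12 arrays. The part of these in the result was not tested. Without that array the median mural change was -0.42 and the median endothelial change -0.13, and still no member passed, where 0.501% of all genes did.

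Genes around the members were grouped in 4 further lists. Among 22 other smooth muscle and pericyte genes, 3 fell from PN14 to PN20 and 11 from PN9 to PN20, and none rose. Of all genes, 0.713% fell from PN14 to PN20 and 10.8% from PN9 to PN20. Actg2, smooth muscle gamma-actin, fell 6.27-fold from a mean of 1241 at PN9 to 182 at PN20 (log2 change -2.65 ± 0.34, adjusted p = 0.000221). The next largest from PN9 to PN20 were Itga8, an integrin subunit of smooth muscle (-1.70 ± 0.29, adjusted p = 0.0012), Pdlim7, a cytoskeletal adaptor (-1.62 ± 0.26, adjusted p = 0.000736), and Flna, the actin cross-linker filamin A (-1.48 ± 0.28, adjusted p = 0.00226). Myocd, the coactivator named above, fell 1.90-fold from PN9 to PN20 (-0.93 ± 0.30, adjusted p = 0.0347). The later step alone had Actg2 (-1.59 ± 0.34, adjusted p = 0.0418), Itga8 (-1.37 ± 0.29, adjusted p = 0.0387) and Cald1, caldesmon, which controls myosin access to actin (-1.19 ± 0.19, adjusted p = 0.0108), which all fell.

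Among 21 other endothelial transcription factors and surface proteins, 2 fell from PN14 to PN20, against 0.713% of all genes. From PN9 to PN20, 6 fell, against 10.8% of all genes. These were led by Ecscr, an endothelial regulator of chemotaxis and apoptosis (log2 change -1.76 ± 0.30, adjusted p = 0.00111), Cd93, a surface receptor of endothelial and myeloid cells (-1.68 ± 0.24, adjusted p = 0.00035), Clec14a, a lectin-like endothelial protein (-1.11 ± 0.30, adjusted p = 0.0174), and Fli1, an ETS factor (-1.01 ± 0.32, adjusted p = 0.0349). Cd93 (-1.34 ± 0.24, adjusted p = 0.0175) and the sialomucin Cd34 (-1.04 ± 0.21, adjusted p = 0.0333) were those that fell from PN14 to PN20. Of 22 growth factors and receptors, 1 fell from PN14 to PN20, Pdgfd, a ligand of Pdgfrb (-0.92 ± 0.21, adjusted p = 0.0489). Over the whole span 6 fell and 1 rose, where 10.8% of all genes fell and 13.5% rose. The largest were Aplnr, the apelin receptor of sprouting endothelium (-1.92 ± 0.36, adjusted p = 0.00208), Vegfc, the lymphatic growth factor (-1.47 ± 0.24, adjusted p = 0.000764), and Pdgfd (-0.84 ± 0.21, adjusted p = 0.0106). The 6 include Pgf, placental growth factor, which was Present on no array and so has no measured change here. The gene that rose was Bmpr2, a BMP receptor (0.82 ± 0.18, adjusted p = 0.00589). Neither of these lists had a gene that passed from PN9 to PN14.

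The list of the vascular basement membrane had 11 genes, most of which also serve other basement membranes. Of these, 2 fell from PN9 to PN14, 3 from PN14 to PN20 and 6 from PN9 to PN20. The shares of all genes that fell were 2.66%, 0.713% and 10.8%. Col18a1, the collagen that releases endostatin, fell 3.01-fold from PN9 to PN14 (log2 change -1.59 ± 0.18, adjusted p = 0.000567). Col4a1, a chain of the main basement membrane collagen, fell in each step (-0.87 ± 0.16, adjusted p = 0.00857 and -0.91 ± 0.16, adjusted p = 0.0165). Sparc, a collagen-binding protein, fell 2.31-fold from PN14 to PN20 (-1.21 ± 0.20, adjusted p = 0.0136). On the arrays labelled Klf4CN no gene of these 4 lists passed.

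Markers of neighbouring tissues were read beside these falls. The 8 fibroblast markers were all detected, and their summed signal went from between 50080 and 66979 at PN9 to between 43245 and 52885 at PN14 and between 33284 and 35660 at PN20. Of these 8 genes, 1 fell from PN14 to PN20 (Postn, -0.89 ± 0.19, adjusted p = 0.0404) and 5 from PN9 to PN20. The median log2 changes were -0.56 and -0.66, and the shares of all genes that fell were 0.713% and 10.8%. The 12 skeletal muscle markers were all detected. They summed to between 339 and 13916 at PN9, 18998 and 31199 at PN14, and 3727 and 14745 at PN20. To PN14, 5 of the 12 rose, against 4.34% of all genes, and the median log2 change was 3.0, whereas the mural median was -0.12. From PN14 to PN20 none passed in limma (8 at an unadjusted p under 0.05), with a median of -2.05. In that step 11 of 12 genes were lower without overlap, against 14.2% of all genes. Between PN9 and PN20 none passed in limma (3 at an unadjusted p under 0.05), with a median of 0.81, against -1.29 for the mural genes.

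The 8 epithelial markers summed to between 24140 and 42705 at PN9, 28789 and 41950 at PN14, and 36621 and 40194 at PN20. Between PN9 and PN20 Epcam and Krt13 rose and Krt14 fell, where 13.5% of all genes rose and 10.8% fell. Krt13 also rose from PN9 to PN14 (means 652.7 and 2064.5), where 4.34% of all genes rose. Epcam also rose from PN14 to PN20 (means 754.5 and 2614), where 0.677% rose. Of 8 leukocyte markers, Cd3e and Cd79a were Present on no array. Of the 6 tested, 1 fell from PN14 to PN20, Tyrobp (-0.97 ± 0.19, adjusted p = 0.03), where 0.713% of all genes fell. From PN9 to PN20 the list was split. Csf1r and Tyrobp fell, where 10.8% of all genes fell. Ptprc and Cd68 did not pass but were higher without overlap, against 25.1% of all genes. The part of these other tissues in the result was not tested.

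**Figure D4:**
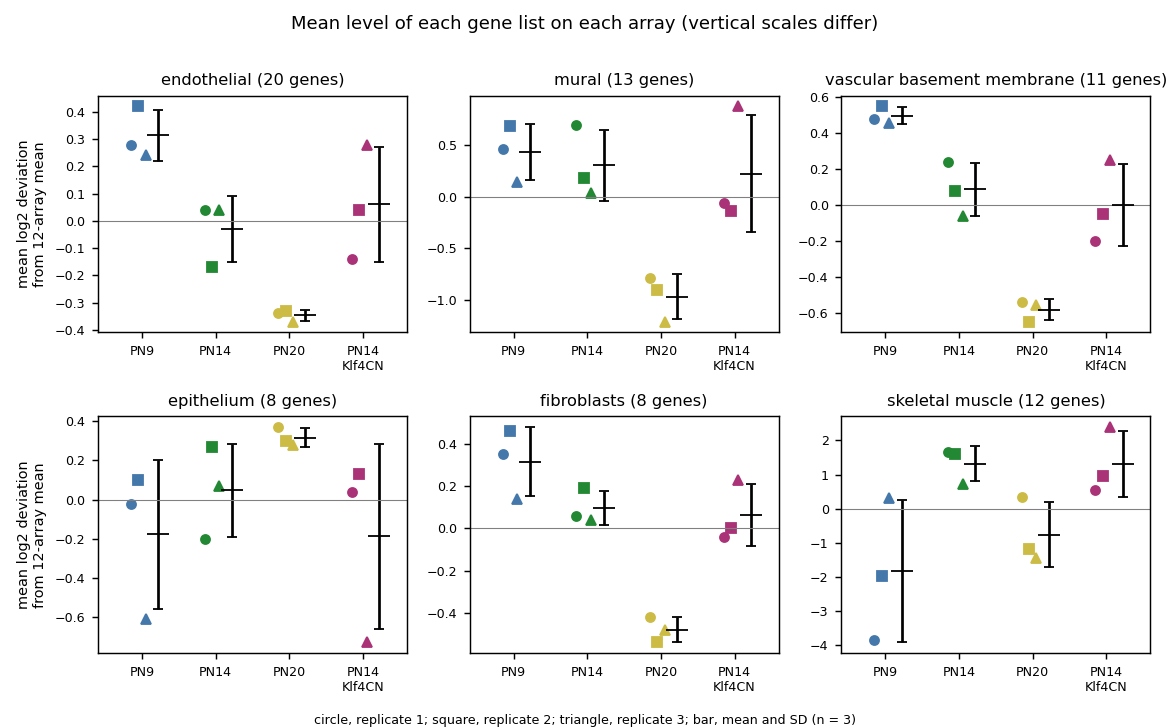
Mean deviation of each gene list from its 12-array mean (log2 units, vertical axis, scales differ between panels) on each array, by group (horizontal axis). Points are arrays with a marker for each replicate, and bars give the mean and SD of 3 arrays. The mural mean at PN20 is -0.97 ± 0.22 and the endothelial mean -0.35 ± 0.02. The skeletal muscle list is highest at PN14 and on the arrays labelled Klf4CN. Klf4CN replicate 3 is the highest of its group in every panel except epithelium, where it is the lowest.

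The actin 3'/5' ratio also moved with age, from 34.9 ± 11.4 at PN9 to 12.7 ± 3.45 at PN20 (SD, n = 3). With that ratio as a covariate, 3 mural genes (Myh11, Myl9 and Cnn1) and 1 endothelial gene fell from PN9 to PN20, where 1.96% of all genes fell. For the later step the mural count with it was 4 (Tagln no longer passed), where 0.430% of all genes fell.

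The other kept probe sets of the members, 22 in 13 genes, gave a second reading of the same arrays. Their sign was that of the brightest probe set for 16 of 22 from PN9 to PN14, 19 from PN14 to PN20 and 21 from PN9 to PN20. For genes that passed, the sign was shared by 4 of 4, 2 of 2 and 12 of 12. A shared sign is not a like size. From PN9 to PN20 the groups overlapped for 1449577_x_at (-0.07) and 1419739_at (-0.26) of Tpm2 and 1418122_at (-0.57) of Myh11. The last also overlapped from PN14 to PN20 (-0.48). On the arrays labelled Klf4CN it was shared by 12 of 22. The authors' deposited table counts, for each probe set, increases minus decreases over 9 pairwise comparisons of arrays. In the authors' deposited table this sum was -9, a decrease in all of them, for 8 of 13 mural genes from PN14 to PN20. From PN9 to PN20 it was -9 for 11 in the authors' deposited table. The share of all probe sets with that sum is not given here, so these counts describe the members only. The rule deposited with that table asks for a change over 2-fold without overlap. By it, 9 of 13 mural and 2 of 21 endothelial genes were lower from PN14 to PN20 in the authors' deposited table. Of 45037 probe sets 1.09% were lower. The members were counted by their brightest probe set, whereas the 45037 also hold dim probe sets below the filter. The shares of probe sets are thus not on a like basis. From PN9 to PN20 the counts in the authors' deposited table were 10 of 13 and 5 of 21, against 3.95%. For Klf4CN against wild type Flt1 alone passed in the authors' deposited table, as higher, against 0.495% of probe sets in either direction.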

How the data were processed

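The authors deposited signal intensities from GCOS 1.4, per the submitters' processing notes, on a linear scale and with every array set to a 2% trimmed mean of 150. The deposited table also gives Present calls per group and a score, which the authors made as the sum of calls over 9 pairwise array comparisons. By the authors' rule a change passes when the higher group is Present on all 3 arrays, no arrays overlap between the groups, the fold between means is above 2 and the sum is larger than 5 in size. The signal over background, not a read depth, limits precision.

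Without the 64 control probe sets, those above the 40th percentile of their array on at least 3 arrays were kept (30618). Because their medians ranged from 70.7 to 91.7, arrays were scaled to a common median (factors 0.8784 to 1.1393). Each gene's brightest kept probe set was used as log2(signal + 16), giving 14172 genes, and limma 3.58.1 in R 4.3.3 fitted 1 mean per group to all 12 arrays (trended variance, Benjamini-Hochberg adjustment). The fit was tested on simulated data. Samples with the same number were not paired (median r -0.0265 over 18 pairs). Members and lists were chosen with earlier results of these data known. Values on every array are given for members that passed and for Pecam1, Cdh5, Kdr, Tie1, Lyve1, Prox1, Acta2, Myh11, Pdgfrb and Rgs5. From the other lists up to 4 genes per comparison are named by size. Myocd, Flt1 and the order of arrays were singled out after their values were seen. So were the test of the difference between steps and the other probe sets of Mylk, Tpm2, Myh11, Acta2 and Notch4. Alternatives covered the offset, scaling, filter, probe set choice, variance model, array weights, a replicate block, the actin ratio as a covariate, the groups fitted and leaving out each array.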

Additional observations from a re-analysis of the deposited data

How the results depend on the processing

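No called change turned in direction under any alternative run. Leaving out 1 array at a time, the counts of members that passed ranged for endothelial genes from 0 to 4 (PN9 to PN14), 0 to 2 (PN14 to PN20), 3 to 9 (PN9 to PN20) and 0 to 0 (Klf4CN), for mural genes from 0 to 1, 0 to 8, 8 to 10 and 0 to 0, and over the 3 ages from 9 to 20. Of 28 called changes, 11 passed whichever array was left out, all from PN9 to PN20. From PN9 to PN14 the endothelial count of 2 became 1 when arrays were scaled by all probe sets, 6 with array weights (1 higher, Esam, and 5 lower, where 9.04% of all genes fell), 0 with the actin ratio and 1 with only the groups compared. From PN14 to PN20 the endothelial count of 2 became 1 without the filter, with the mean of all probe sets, without the variance trend and with the actin ratio, and 5 with array weights. With the replicate block it was 1, and that block changed no other count by over 1.5 times (mural 4 from PN14 to PN20, mural 10 and endothelial 8 from PN9 to PN20). The mural count of 5 became 10 with array weights, where 4.96% of all genes fell, and 8 with only the groups compared, where 3.75% fell, against 0.713% as reported. Array weights gave 1 mural gene from PN9 to PN14 (Pdgfrb) and, for Klf4CN, 1 mural gene (Myl9, lower) and 1 endothelial gene (Flt1, higher), where 3.22% of all genes passed. With the actin ratio the counts from PN9 to PN20 became 1 endothelial and 3 mural, and the 18 genes that changed over the 3 ages became 5. With the mean of all probe sets Mylk passed from PN9 to PN20 and Tpm2 did not. These causes were not tested. On the values as deposited the median of all genes from PN9 to PN20 shifted by -0.105, and 40.7% of calls were higher, against 55.5% as reported. In the other comparisons the share of higher calls went from 62.0% to 48.1% (PN9 to PN14), and to 75.0% when arrays were scaled by all probe sets, from 48.7% to 28.3% with that scaling (PN14 to PN20), and from 42.3% to 30.0% (Klf4CN). With 3 arrays a group, small changes and dim genes such as Tie1, Erg and Notch4 are measured least firmly.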
